A study of Arabidopsis thaliana with 15 samples.

Results

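The genes described here are 10 members of the XTH family of Arabidopsis thaliana, chosen as a fixed list of names: TCH4 (XTH22, AT5G57560), XTH4 (AT2G06850), XTH15 (AT4G14130), XTH16 (AT3G23730), XTH18 (AT4G30280), XTH19 (AT4G30290), XTH23 (AT4G25810), XTH24 (AT4G30270), XTH25 (AT5G57550) and XTH31 (AT3G44990). All 10 were present among the 18934 genes of the gene count table, and they held 15 of the 26677 CAGE tag clusters (TCs). All 10 genes and all 15 TCs passed the filter on low counts. The list was chosen with earlier results of these data known. Counts of members set beside shares of all genes are therefore a description.

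XTH genes encode xyloglucan endotransglucosylase/hydrolases, secreted enzymes that cut xyloglucan, a hemicellulose bound to cellulose in the primary cell wall, and rejoin the cut end to another xyloglucan chain or to water. They are known from growing and remodelled walls, and their mRNAs respond to hormones and to mechanical and abiotic stimuli. TCH4 takes its name from the touch genes, a group found through mRNAs that rise within minutes of mechanical stimulation of Arabidopsis plants. XTH31 belongs to the family branch known for cutting xyloglucan rather than rejoining it.

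The study profiled transcription start sites by CAGE, which sequences the capped 5′ ends of RNA, so that each tag counts 1 RNA 5′ end whatever the length of the RNA. There were 15 libraries in 5 groups of 3, each from a pool of 10 whole Col-0 seedlings aged 14 days that had spent the last 48 h in liquid medium. The groups were rrp4-2 at 30 min, hen2-4 at 30 min, hen2-4 at 10 min, wild type (wt) at 30 min and wt at 10 min after flg22. flg22, a peptide of bacterial flagellin that triggers pattern-triggered immunity, was given to every group at 3.3 µM together with its solvent DMSO. The hen2-4 mutant carries a T-DNA insertion in HEN2, an RNA helicase that serves the exosome in the nucleoplasm, and rrp4-2 is a hypomorphic point-mutation allele of RRP4, a core subunit of the exosome, the complex that degrades RNA from the 3′ end. Untreated seedlings are not analysed here, and rrp4-2 has 1 time point, so each comparison is between 2 times after flg22 or between genotypes that all received it. In pools of whole seedlings, fewer cells of a type and less RNA per cell cannot be told apart. The replicates came from 1 seed batch on separate plates and in separate wells at the same time, so the p-values measure the spread between such pools.

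The tag positions place the starts of these genes on the TAIR10 genome. The sequences shown first are the sites at which TCH4, XTH18 and XTH23 hold the 5 bases CGCGT, the core of the element bound by CAMTA transcription factors. The windows searched ran from 250 bases before to 50 bases after the upstream edge of each gene's TC with the most tags. CGCGT was searched on both strands and is in capitals. It was found in the windows of 3 of the 10 genes and in 10.8% of 18357 windows of protein-coding genes drawn in the same way. In the windows around the annotated gene starts it was found for XTH18 alone among the 10, and for 8.70% of 27443 genes, so the count depends on the start that is used. Sequences are from RefSeq, assembly TAIR10.1, written 5′ to 3′ on the strand of the gene:
TCH4, chr5:23308451-23308480, minus strand: ctaaacaaaaacCGCGTgatttccaaagcc
TCH4, chr5:23308373-23308402, minus strand: gttgcctcaaagACGCGgcttcttctttcg
XTH23, chr4:13128462-13128491, plus strand: aaaaaccaaaacCGCGTcaccaactccaaa
XTH18, chr4:14827269-14827298, minus strand: ataataatctcaACGCGggaccagcatgtg

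The sites in TCH4 lay 101 and 23 bases before the upstream edge of its TC, the site in XTH23 lay 164 bases before the edge of its main TC, and the site in XTH18 lay 236 bases before. The sites in TCH4 and XTH23 lie inside the annotated genes, past their annotated starts, and that in XTH23 lies within a minor TC of the gene (chr4:13128452-13128615). The site in XTH18 lies before the annotated start. The TTGAC core of the W-box, bound by WRKY factors, was found in the windows of 4 of the 10 genes (XTH19, XTH23, XTH24 and XTH31) and in 51.7% of all windows, but around the annotated starts it was found for 7 of the 10 (TCH4, XTH15, XTH18, XTH19, XTH23, XTH25 and XTH31) and for 50.5% of genes. TATAAA on the strand of the gene was found in 4 of the 10 (XTH16, XTH18, XTH23 and XTH25) and in 38.0% of all windows. The cold and drought element core CCGAC was found in 3 (TCH4, XTH24 and XTH31) and in 16.7% of all windows, but around the annotated starts for XTH31 alone. The auxin response motifs TGTCTC and TGTCGG matched in XTH24 and in XTH31, the second overlapping the CCGAC match there, and in 14.3% and 5.63% of all windows. The brassinosteroid response motif CGTGTG matched in XTH25 and in 7.29% of all windows, and around the annotated starts in XTH23 as well. TGTCTC matched none of the 10 there. Neither CGTGCG, held by 2.20% of all windows, nor the G-box CACGTG, held by 9.93%, matched in any of the 10. Apart from TATAAA, the motifs were searched on both strands, and a match is a description of these letters alone.

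XTH18 and XTH19 are neighbours in a tandem array that also holds XTH24, and both rose in both genotypes, so the bases between their search windows' outer ends and their annotated transcripts are given, with matches to the listed motifs in capitals:
XTH18, chr4:14827212-14827300, minus strand: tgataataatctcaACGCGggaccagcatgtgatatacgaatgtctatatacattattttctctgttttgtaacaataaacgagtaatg
XTH19, chr4:14830225-14830442, minus strand: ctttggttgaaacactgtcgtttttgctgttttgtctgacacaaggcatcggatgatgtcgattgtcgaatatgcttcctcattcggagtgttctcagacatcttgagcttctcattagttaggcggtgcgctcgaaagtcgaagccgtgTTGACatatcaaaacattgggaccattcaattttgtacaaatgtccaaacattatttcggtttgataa

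The capitals are the CGCGT match of XTH18, read on the other strand, and the TTGAC match of XTH19, 100 bases before the edge of its TC. XTH18 (chr4:14825757-14827211) and XTH19 (chr4:14828712-14830224) were the pair most alike among the 10, with 89.2% of aligned coding bases identical (744 of 834). Of the start positions in the XTH18 TC, 79 of 82 gave a 25-base tag found once in the genome, and all those in the XTH19 TC did, so exact tags from these positions could be told apart. Tags with mismatches were not considered. TCH4 and XTH23 shared 80.9% of coding bases, TCH4 and XTH24 75.4%, XTH15 and XTH16 81.7%, and the least alike pair was XTH19 and XTH31 with 59.2%. TCH4 (chr5:23307006-23308680) and XTH25 (chr5:23304782-23306440) also lie next to each other on the same strand.

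Each gene had 1 TC holding nearly all its tags. TCH4 (143 bases, chr5:23308225-23308367), XTH15 (chr4:8138237-8138283), XTH16 (chr3:8550043-8550242), XTH18 (chr4:14826969-14827050), XTH19 (chr4:14829962-14830192) and XTH25 (chr5:23306354-23306449) had a single TC. The TC of TCH4 lay 313 bases inside the annotated gene start, with 132 of its bases in the annotated 5′ UTR and 11 in the coding sequence. The main TC of XTH23 (chr4:13128638-13128733, 97.4% of the gene's tags) lay 244 bases inside the annotated start, with 56 bases in the UTR and 40 in the coding sequence. XTH24 had the broadest TC (478 bases, chr4:14820213-14820690), which began 95 bases before the annotated start and held 236 coding bases. The main TC of XTH4 (chr2:2763434-2763715) held 96.0% of its tags and that of XTH31 (chr3:16448669-16448793) held 98.1%.

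The libraries held 13904125 to 24753128 tags in genes. TMM scaling factors, which correct library sizes for composition, were 0.907 to 1.14 in 14 libraries and 0.821 in replicate 3 of wt at 30 min. That library correlated least with its own group, at r = 0.959 and 0.961 over genes, against 0.973 to 0.989 for all other pairs of replicates, so results that rest on it are given with and without it. Levels are CPM, the tag count relative to the TMM-scaled library size. HEN2 averaged 6.35 CPM in hen2-4 and 44.4 CPM in wt at 30 min (log2 fold change −2.81 ± 0.25 SE, edgeR adjusted p = 2.8e-05). The leaf markers RBCS1A and CAB1 were at 1176 to 8512 CPM in every library and LHCB2.1 at 122 to 480 CPM, the root markers EXPA7, COBL9 and NRT2.1 were at 0.678 to 5.81 CPM, and the 5 flower, pollen and seed markers were not among the genes of the table.

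Together the 10 genes took 0.346% to 0.731% of all gene tags in a library. XTH24 had the highest mean over the 15 libraries, 2548 CPM, with a range of 1396 to 5113 CPM. TCH4 followed at 1112 CPM (294 to 2272 CPM) and was below XTH24 in 15 of 15 libraries, although the 2 ranges overlapped. XTH18 averaged 305 CPM (39.8 to 608 CPM), XTH23 226 CPM (54.9 to 866 CPM), XTH19 163 CPM (56.7 to 417 CPM) and XTH16 118 CPM (75.4 to 181 CPM), and neighbours in this order overlapped. XTH31 at 35.8 CPM, XTH15 at 35.5 CPM and XTH4 at 24.5 CPM formed a lower tier whose ranges overlapped each other. All libraries of XTH16 were above all those of XTH31, and all those of XTH4 above all those of XTH25, which averaged 3.16 CPM (1.88 to 6.29 CPM).

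**Figure D1:**
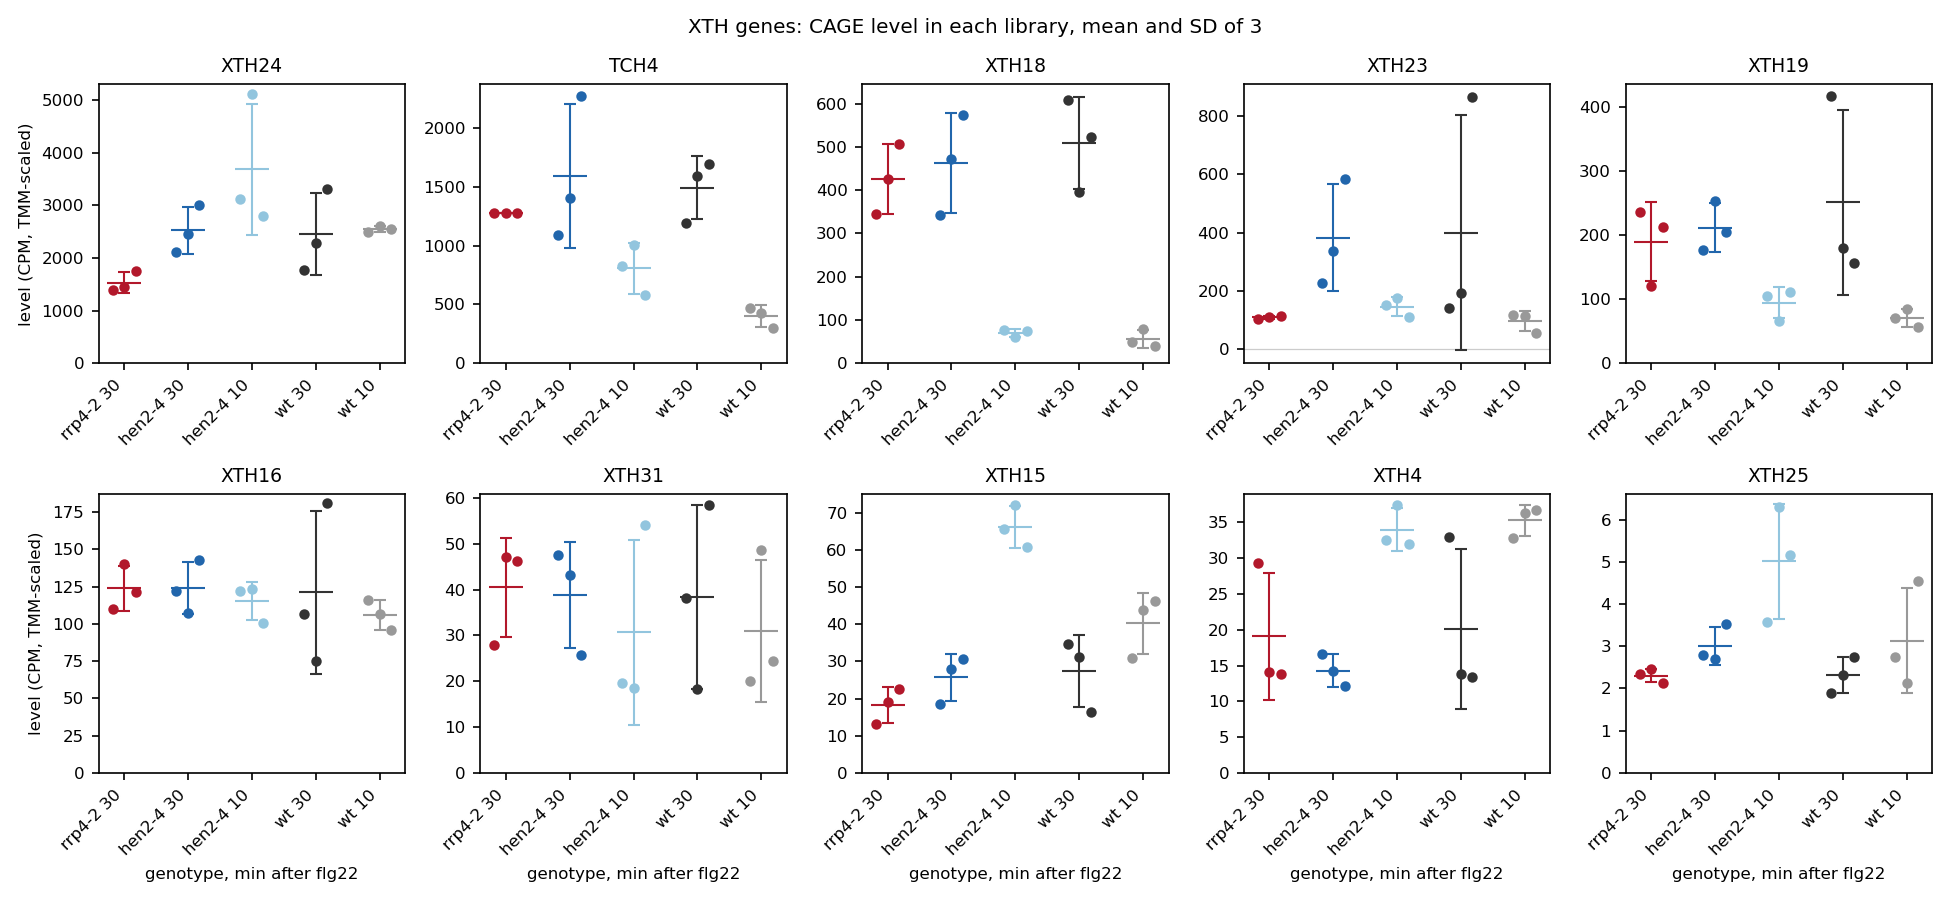
Level of each of the 10 XTH genes in CPM (vertical axis, a scale for each gene) in each library, by genotype and min after flg22 (horizontal axis). Points are libraries, and horizontal lines with bars are the mean and SD of 3. TCH4 and XTH18 are higher at 30 min than at 10 min in every wt and hen2-4 library, and XTH23 has 1 wt library at 866 CPM far above the other 2 of its group.

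The first question is how these genes differed between 30 and 10 min after flg22 in wt. TCH4, XTH18, XTH19 and XTH23 were called higher, by 3.56-fold to 9.13-fold, and no member was called lower. A gene was called where edgeR gave an adjusted p of at most 0.05 and an absolute log2 fold change of at least 1, which counted 4 of the 10 members, all higher, against 11.2% of 18879 tested genes in either direction and 7.55% higher. The median log2 fold change was 0.25 over the 10 and 0.01 over all tested genes. The libraries of the 2 times did not overlap for the same 4 members, against 32.6% of all genes.

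TCH4 had 1194, 1594 and 1694 CPM in wt at 30 min, against 472, 426 and 294 CPM in wt at 10 min. All 3 later libraries were well above all 3 earlier ones. This is a log2 fold change of 1.91 ± 0.27 (SE, edgeR adjusted p = 0.000117), and of 1.80 without replicate 3 of wt at 30 min (adjusted p = 0.000394).

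XTH18, known in Arabidopsis mainly from roots, showed the largest difference among the 10. It had 608, 396 and 523 CPM in wt at 30 min, against 49.2, 78.0 and 39.8 CPM in wt at 10 min (log2 fold change 3.19 ± 0.28, edgeR adjusted p = 7.67e-07). Its tandem neighbour XTH19 had 417, 179 and 157 CPM in wt at 30 min, against 71.0, 83.7 and 56.7 CPM in wt at 10 min (1.83 ± 0.35, edgeR adjusted p = 0.00149). Replicate 1 at 30 min stood above the other 2 for XTH19, and the groups did not overlap.

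The rise of XTH23, the member most like TCH4 in coding sequence, rested on 1 library. It had 139, 193 and 866 CPM in wt at 30 min, against 117, 113 and 54.9 CPM in wt at 10 min. It was called at 2.07 ± 0.55 (log2, edgeR adjusted p = 0.0148) but not without replicate 3 of wt at 30 min (0.80, adjusted p = 0.145). It was also not called without replicate 3 of wt at 10 min (1.79, adjusted p = 0.0713) or when only these 2 groups were fitted (2.06, adjusted p = 0.0763).

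XTH24, the third member of the chromosome 4 array, was not called. It had 1778, 2278 and 3307 CPM in wt at 30 min, against 2486, 2606 and 2549 CPM in wt at 10 min, and the groups overlapped. XTH25, next to TCH4, had 1.88, 2.32 and 2.76 CPM in wt at 30 min, against 2.74, 2.13 and 4.54 CPM in wt at 10 min, again with overlap.

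XTH4 had 33.0, 13.8 and 13.4 CPM in wt at 30 min, against 32.8, 36.3 and 36.8 CPM in wt at 10 min. Replicate 1 at 30 min was at the level of the 10 min libraries and the other 2 were well below them. XTH4 was not called (−0.81 ± 0.32, edgeR adjusted p = 0.0925), except without replicate 1 of wt at 30 min (−1.38, adjusted p = 0.0028) and with library sizes alone (−1.05, adjusted p = 0.0394). XTH15, whose mRNA is known from shade-induced growth of Arabidopsis, had 34.7, 31.2 and 16.3 CPM in wt at 30 min, against 30.8, 43.7 and 46.2 CPM in wt at 10 min (−0.55, adjusted p = 0.173). XTH16 and XTH31 overlapped between the times in wt: XTH16 had 107, 75.4 and 181 CPM at 30 min against 116, 107 and 95.8 CPM at 10 min, and XTH31 had 38.3, 18.2 and 58.4 CPM at 30 min against 20.03, 48.6 and 24.3 CPM at 10 min.

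The same 2 times were compared in hen2-4. XTH18 and XTH19 rose, and XTH4 and XTH15 fell, so 4 of the 10 members were called, against 11.3% of all tested genes, with 6.0% higher and 5.31% lower. The median log2 fold change was 0.22 over the 10 and −0.00 over all genes. For 7 members the libraries did not overlap, against 42.6% of all genes.

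XTH18 had 343, 472 and 573 CPM in hen2-4 at 30 min, against 76.8, 59.4 and 73.5 CPM in hen2-4 at 10 min (log2 fold change 2.73 ± 0.27, edgeR adjusted p = 4.42e-06), a 6.62-fold difference. XTH19 had 177, 253 and 205 CPM in hen2-4 at 30 min, against 105, 66.1 and 111 CPM in hen2-4 at 10 min (1.17 ± 0.35, edgeR adjusted p = 0.0248). Its groups did not overlap, but the call was lost without any 1 of 4 libraries, replicates 1 or 2 at 10 min and 2 or 3 at 30 min, with adjusted p of 0.0531 to 0.107, and with library sizes alone (0.93, adjusted p = 0.0723).

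TCH4 had 1090, 1403 and 2272 CPM in hen2-4 at 30 min, against 825, 1008 and 582 CPM in hen2-4 at 10 min. All 3 later libraries were above all 3 earlier ones. A log2 fold change of 0.98 ± 0.27 (edgeR adjusted p = 0.0163) fell just short of the limit of 1, so TCH4 was not called at the gene level, while its TC, which holds the same tags scaled on the TC table, was (1.02 ± 0.27, adjusted p = 0.014). The gene was called without replicate 2 at 10 min (1.17) and without replicate 1 (1.19) or 2 (1.06) at 30 min, and the TC was not called without replicate 3 of either hen2-4 group or under 5 other settings, DESeq2 (0.9986) and limma voom (0.98) among them.

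XTH15 fell whichever library was left out. It had 18.6, 28.0 and 30.6 CPM in hen2-4 at 30 min, against 65.7, 72.0 and 60.7 CPM in hen2-4 at 10 min (log2 fold change −1.36 ± 0.28, edgeR adjusted p = 0.00265). XTH4, an endotransglucosylase gene known from expanding and woody tissue of Arabidopsis, had 16.6, 14.2 and 12.1 CPM in hen2-4 at 30 min, against 32.6, 37.5 and 32.0 CPM in hen2-4 at 10 min (−1.25 ± 0.33, edgeR adjusted p = 0.0133). The groups did not overlap, and the call was lost by a narrow margin without replicate 3 of hen2-4 at 30 min (−1.17, adjusted p = 0.0519).

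A leaf marker moved with XTH4 and XTH15. LHCB2.1, a light-harvesting protein gene, had 215, 170 and 202 CPM in hen2-4 at 30 min, against 403, 480 and 382 CPM in hen2-4 at 10 min (−1.11, edgeR adjusted p = 0.00148). In wt it was lower in all libraries at 30 min as well, under the fold limit (−0.75, edgeR adjusted p = 0.0183). It was the 1 of 3 leaf markers called, the 3 root markers were not called between the times, and none of the 6 was at 0 in any library. The 3 leaf markers together held 5518 to 7579 CPM in hen2-4 at 30 min, against 6942 to 9500 CPM in hen2-4 at 10 min. Their part in the lower values of XTH4 and XTH15 was not tested.

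XTH23 had 225, 335 and 584 CPM in hen2-4 at 30 min, against 149, 175 and 109 CPM in hen2-4 at 10 min, again without overlap. The difference of 1.40 ± 0.54 was not called (edgeR adjusted p = 0.0757) in the fit of all libraries, which share 1 estimate of spread, and was called without replicate 1 (1.40, adjusted p = 0.039) or 3 (1.38, adjusted p = 0.0062) of wt at 30 min and with the 2 hen2-4 groups fitted alone (1.38, adjusted p = 0.013). XTH24 had 2105, 2466 and 3003 CPM in hen2-4 at 30 min, against 3131, 5113 and 2808 CPM in hen2-4 at 10 min (−0.55, adjusted p = 0.124). XTH25 had 2.79, 2.70 and 3.52 CPM in hen2-4 at 30 min, against 3.58, 6.29 and 5.17 CPM in hen2-4 at 10 min, all lower but not called (−0.74, adjusted p = 0.076).

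XTH16 and XTH31 were again without a call. XTH16 had 122, 108 and 143 CPM in hen2-4 at 30 min, against 122, 123 and 101 CPM in hen2-4 at 10 min. XTH31 had 47.5, 43.2 and 25.7 CPM in hen2-4 at 30 min, against 19.5, 18.4 and 54.0 CPM in hen2-4 at 10 min, and its replicates spread as widely as its groups.

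**Figure D2:**
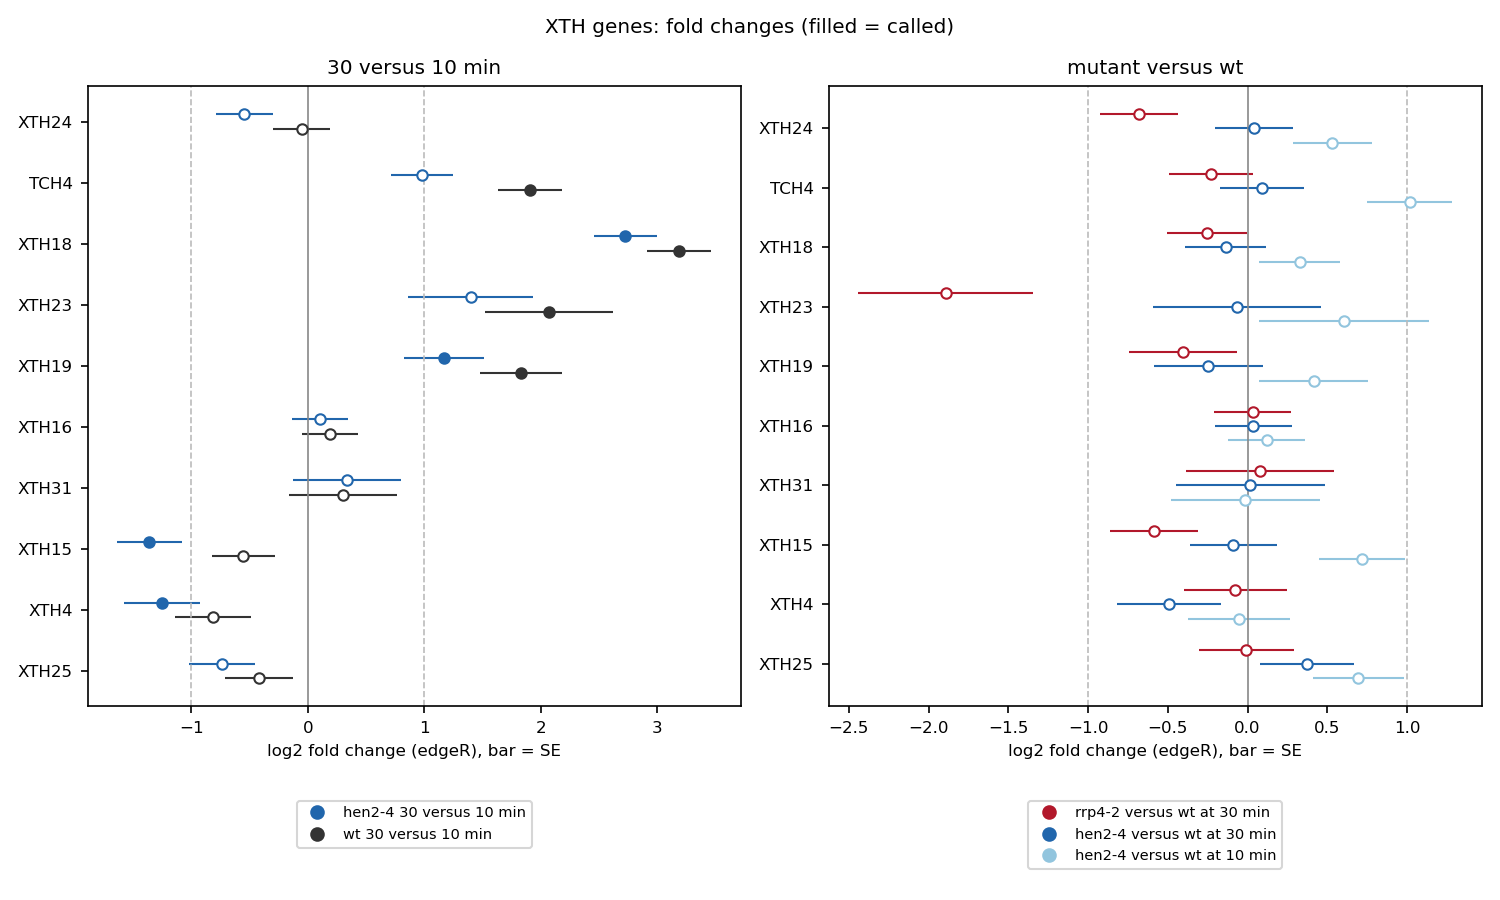
Log2 fold change with SE (horizontal axis) of each of the 10 XTH genes (vertical axis), on the left for 30 against 10 min in hen2-4 and in wt, on the right for the mutants against wt at the same time. Filled points are called by edgeR and dashed lines mark a log2 fold change of −1 and 1. On the left XTH18 lies at 2.73 in hen2-4 and 3.19 in wt, and on the right no point is filled.

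The difference between the 2 time changes, hen2-4 minus wt, was tested as its own term. No member was called, nor was any of the 18879 genes (0.00%), with DESeq2 and limma voom calling 0 of the members as well. The log2 difference was −0.93 ± 0.37 for TCH4 (edgeR adjusted p = 0.868). TCH4 was the 1 member with an unadjusted p under 0.05 in that fit. The difference was below 0 for 9 of the 10, with a median of −0.48 against −0.04 for all genes. XTH4 and XTH15 were called in hen2-4 and not in wt, and their differences of −0.44 ± 0.46 (edgeR adjusted p = 0.944) and −0.81 ± 0.38 (edgeR adjusted p = 0.876) do not show that the genotypes differed.

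The next comparisons ask whether loss of HEN2 or of full RRP4 function altered the levels of these genes. The comparisons at 30 min share the wt libraries, and those with hen2-4 share the hen2-4 libraries. No member was called between hen2-4 and wt at 10 min, against 1.2% of all genes, or at 30 min, against 0.996%. None was called between rrp4-2 and wt at 30 min, against 2.70%, or between rrp4-2 and hen2-4 at 30 min, against 0.334%. At an unadjusted p under 0.05 the counts were 4 for hen2-4 against wt at 10 min, 0 at 30 min, 3 for rrp4-2 against wt and 2 for rrp4-2 against hen2-4. DESeq2 called 1 member in hen2-4 against wt at 10 min and 1 in rrp4-2 against wt, and 0 in the other pair, and limma voom called 0 in all 4. The shares of all genes at an unadjusted p under 0.05, by DESeq2 and by limma voom were not counted, so these counts cannot be set against them.

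At 10 min the 3 hen2-4 libraries of TCH4 (825, 1008 and 582 CPM) were all above the 3 wt libraries (472, 426 and 294 CPM). With a log2 fold change of 1.02 ± 0.27 and an edgeR adjusted p of 0.0761, it was not called. It was the member called by DESeq2 (1.02, adjusted p = 0.0107), and edgeR called it with library sizes alone (1.06, adjusted p = 0.0385), without replicate 3 of hen2-4 at 10 min (1.21, adjusted p = 0.0409) and without replicate 3 of hen2-4 at 30 min (1.03, adjusted p = 0.0371). At 30 min TCH4 overlapped between hen2-4 and wt (0.09, edgeR adjusted p = 0.945).

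XTH15 and XTH24 were also higher in all hen2-4 libraries than in all wt libraries at 10 min. XTH15 had 65.7, 72.0 and 60.7 CPM in hen2-4, against 30.8, 43.7 and 46.2 CPM in wt (0.72, edgeR adjusted p = 0.275). These 3 members without overlap compare with 19.3% of all genes. LHCB2.1 was also higher in all hen2-4 libraries there (0.56, edgeR adjusted p = 0.259), but the other 5 markers had log2 fold changes below 0. The 3 leaf markers together held 6942 to 9500 CPM in hen2-4 at 10 min, against 9045 to 11700 CPM in wt at 10 min. The part of the markers was not tested. At 30 min no member was without overlap between hen2-4 and wt, against 14.0% of all genes, and the median log2 fold change of the 10 was −0.02, against 0.47 at 10 min.

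In rrp4-2 at 30 min TCH4, XTH18 and XTH19 were not called. TCH4 had 1275, 1276 and 1276 CPM in rrp4-2, against 1194, 1594 and 1694 CPM in wt at 30 min (−0.23, edgeR adjusted p = 0.699). XTH18 had 346, 427 and 508 CPM in rrp4-2, and XTH19 had 237, 120 and 212 CPM, and both overlapped wt at 30 min.

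XTH23 had 101, 109 and 112 CPM in rrp4-2, against 139, 193 and 866 CPM in wt at 30 min. Every rrp4-2 library was lower, and the log2 fold change was −1.89 ± 0.55 with an edgeR adjusted p of 0.0663. Without replicate 3 of wt at 30 min it was −0.64 (adjusted p = 0.377), and DESeq2 called it with that library in (−1.92, adjusted p = 0.0407), as did edgeR without replicate 1 (−2.30, adjusted p = 0.0209) or 2 (−2.22, adjusted p = 0.0368) of wt at 30 min. Against hen2-4 at 30 min (225, 335 and 584 CPM) XTH23 was lower in every rrp4-2 library too. That log2 fold change was −1.83 ± 0.55 (edgeR adjusted p = 0.178), and it was called without replicate 3 of wt at 30 min (−1.83, adjusted p = 0.0127) and with the 2 groups fitted alone (−1.83, adjusted p = 0.0134).

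XTH24 was lower in all rrp4-2 libraries (1396, 1449 and 1751 CPM) than in all wt libraries at 30 min (1778, 2278 and 3307 CPM), with a log2 fold change of −0.68 ± 0.25 (edgeR adjusted p = 0.14). It was also below all hen2-4 libraries at 30 min (−0.72, edgeR adjusted p = 0.242). XTH23 and XTH24 were the 2 members without overlap between rrp4-2 and wt, against 19.6% of all genes, and XTH25 joined them as the third against hen2-4, where 22.4% of all genes did not overlap. Of the markers, EXPA7 of the root was called lower in rrp4-2 than in wt (−1.22, edgeR adjusted p = 0.0303), a call lost without any 1 of 5 libraries, and LHCB2.1 was higher in all rrp4-2 libraries, under the fold limit (0.81, edgeR adjusted p = 0.0384). The 3 root markers together held 3.76 to 4.21 CPM in rrp4-2, against 6.45 to 9.16 CPM in wt at 30 min, and the 3 leaf markers 6087 to 7066 CPM in rrp4-2, against 7684 to 10087 CPM in wt. Their part in these differences was not tested.

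The remaining members overlapped between rrp4-2 and wt. XTH15 had 13.04, 19.1 and 22.5 CPM in rrp4-2, against 34.7, 31.2 and 16.3 CPM in wt at 30 min (−0.59, edgeR adjusted p = 0.265). XTH4 had 29.3, 14.2 and 13.8 CPM in rrp4-2, with the same pattern as wt at 30 min, in which replicate 1 was above the other 2. XTH16 had 110, 140 and 121 CPM, XTH25 had 2.33, 2.45 and 2.13 CPM and XTH31 had 27.9, 47.1 and 46.3 CPM in rrp4-2.

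The 15 TCs were tested apart, on the TC table. At 30 against 10 min, edgeR called 6 of the 15 TCs with time in wt and 8 with time in hen2-4, against 12.1% and 12.7% of the 23712 tested TCs that enter gene values. None was called between hen2-4 and wt at 10 min (1.91% of those TCs) or at 30 min (1.62%), with 5 and 1 at an unadjusted p under 0.05 and 0 by DESeq2 or limma voom. The shares of all TCs under these other rules were not counted. Between rrp4-2 and wt 1 was called (3.72%), the main TC of XTH23 (−1.96 ± 0.55, edgeR adjusted p = 0.031), which was lost without replicate 3 of wt at 30 min (−0.68, adjusted p = 0.30) and without any 1 rrp4-2 library. It was also lost with limma voom (−1.47, adjusted p = 0.0933), with the replicate block (−1.74, adjusted p = 0.0634) and with only these groups fitted (−1.95, adjusted p = 0.119).

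XTH23 was the member with 3 TCs. Its minor TC furthest upstream (chr4:13128354-13128413, 0.354% of the gene's tags) had 0.779, 1.01 and 1.89 CPM in wt at 30 min, against 0.160, 0.273 and 0 CPM in wt at 10 min. All later libraries were above all earlier ones. The difference was 2.92 ± 0.57 (edgeR adjusted p = 0.00164), and 2.47 without replicate 3 of wt at 30 min (adjusted p = 0.00866), whereas the gene was not called without it. The fold depends on the prior count where a library is at 0. In hen2-4 this TC and the next one (chr4:13128452-13128615) were called higher at 30 min (1.42 ± 0.48 and 1.49 ± 0.49, edgeR adjusted p = 0.0455 and 0.0405), calls lost without any 1 of 10 and of 5 libraries, and for the first also with the replicate block (1.43, adjusted p = 0.0623).

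XTH4 had a minor TC wholly inside its coding sequence (chr2:2764280-2764310, 3.99% of its tags), which was lower at 30 min in hen2-4 (−2.41 ± 0.54, edgeR adjusted p = 0.00498), as was its main TC (−1.18 ± 0.32, edgeR adjusted p = 0.0151), the second call lost without any 1 of 3 libraries. The share of a gene's tags taken by each TC was tested with limma's diffSplice for TCs holding at least 10% of the tags of a gene in at least 3 libraries. No member had 2 such TCs, so none could be tested. Of the 3617 TCs that could be, 9.98% were called in wt and 8.76% in hen2-4, which says nothing of the members. With no minimum share, 9 member TCs were tested and 0 were called in either genotype. The share of all TCs called under that setting is not given here, so this count cannot be set against it.

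Some TCs on the strand opposite to a member differed between the mutants and wt. The TCs described next enter no gene value, lie within 600 bases of a member, and were singled out after their values were seen. There were 6, of which 5 were on the opposite strand and 4 of these inside a member. Of those 4, 2 met the call rule as higher in each mutant against wt, the TCs inside XTH4 and XTH31, and the 2 inside XTH24 did not. Since the TCs were chosen on these values, this count of 2 of 4 is a description. That share is near the one for all 1740 opposite-strand TCs tested inside protein-coding genes, of which 41.0% were called higher in hen2-4 than in wt at 10 min, 42.0% at 30 min, and 51.5% in rrp4-2 than in wt. The wt libraries held 0 to 4 tags of the TCs inside XTH4 and XTH31, so these passed the filter on low counts through the mutant libraries, and their values are given as a description with no test. All 1740 TCs passed the same filter, so any near 0 in wt also entered through the mutant libraries. The shares called higher have that same limit. The sequences run on the strand of the TC, with its bases in capitals, and cover 50 bases before to 100 after its upstream edge for XTH4, and the part of that stretch in the coding exon for XTH31:
Opposite to XTH4, chr2:2764612-2764761, minus strand: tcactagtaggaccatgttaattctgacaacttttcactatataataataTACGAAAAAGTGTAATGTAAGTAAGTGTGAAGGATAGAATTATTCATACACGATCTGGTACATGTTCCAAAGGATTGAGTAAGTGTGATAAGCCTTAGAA
Opposite to XTH31, chr3:16447280-16447345, plus strand: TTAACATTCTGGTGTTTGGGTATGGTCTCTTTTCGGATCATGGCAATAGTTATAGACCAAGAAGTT

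The TC opposite to XTH4 (chr2:2764585-2764711) spans 49 intron bases, where it begins, and 78 coding bases of the exon beside them, 1262 bases after the annotated start of XTH4. It had 8.002, 8.62 and 5.19 CPM in hen2-4 at 10 min, against 0.120, 0.091 and 0.259 CPM in wt at 10 min. The tags behind these were 428 in hen2-4 and 9 in wt, a ratio of 49.8 when scaled for library size.

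At 30 min the same TC had 5.03, 2.63 and 3.81 CPM in rrp4-2, 3.19, 4.13 and 3.34 CPM in hen2-4, and 0.0519, 0.225 and 0 CPM in wt. With 236 tags in rrp4-2 and 5 in wt the ratio was 41.6, and with 215 in hen2-4 it was 39.6. Over the libraries of each group there were 16.8 to 29.7 opposite-strand tags per 100 tags of XTH4 itself in the mutants, and 0 to 1.6 in wt.

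The TC opposite to XTH31 (chr3:16447246-16447358) spans 79 coding bases of the last exon and 34 bases of the 3′ UTR. It had 1.72, 1.73 and 2.09 CPM in hen2-4 at 10 min, against 0.0801, 0 and 0.0647 CPM in wt at 10 min. With 111 tags in hen2-4 and 3 in wt, the ratio was 38.7.

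At 30 min the TC opposite to XTH31 had 3.10, 3.30 and 2.36 CPM in rrp4-2, 3.66, 3.86 and 1.91 CPM in hen2-4, and 0.104, 0 and 0 CPM in wt. With 183 tags in rrp4-2 and 2 in wt the ratio was 80.6, and with 184 in hen2-4 it was 84.8. The values of the genes XTH4 and XTH31 themselves were not called in any of these 3 comparisons.

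With time, 1 of the 4 TCs met the call rule for wt and 1 for hen2-4, against 19.7% and 22.2% of all 1740. These counts too are a description. The TC opposite to XTH4 was lower at 30 than at 10 min in hen2-4 (log2 fold change −1.03). It fell out of the call rule without any 1 of 9 libraries, with limma voom (−0.98) and with the replicate block (−1.01). XTH4 itself was lower too.

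**Figure D3:**
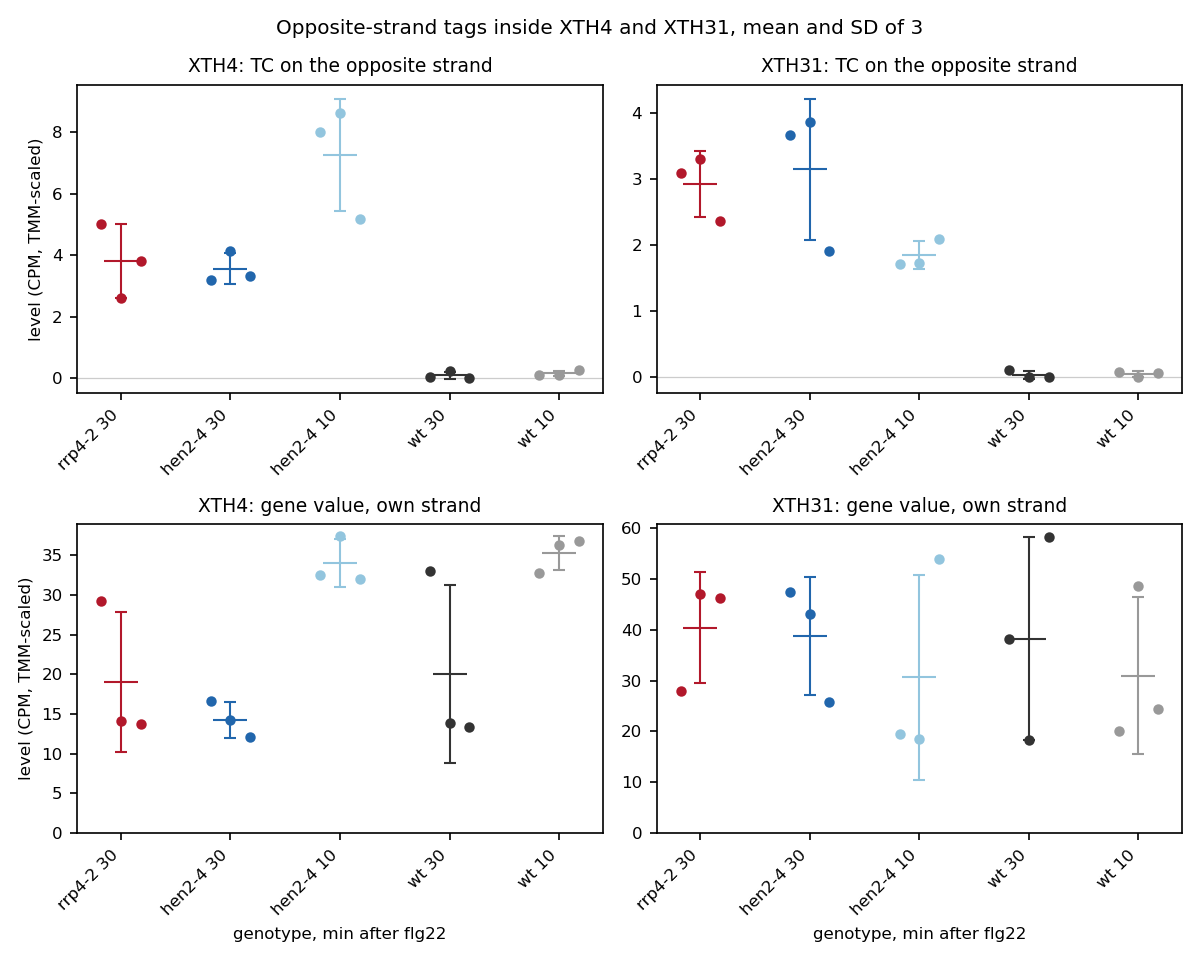
Upper panels show the TC on the opposite strand inside XTH4 (left) and XTH31 (right), lower panels the genes' own values, in CPM (vertical axis) by genotype and min after flg22 (horizontal axis). Points are libraries, lines with bars the mean and SD of 3. The opposite-strand TCs are at 1.72 CPM or more in every mutant library and at 0.259 CPM or less in every wt library, whereas the genes' own values in rrp4-2 and wt overlap at 30 min.

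A TC on the same strand as XTH16, beginning 592 bases past its annotated end (chr3:8551995-8552181) and overlapping AT3G23740 on the other strand, was also higher in the mutants. It had 4.27, 7.27 and 7.78 CPM in hen2-4 at 10 min, against 0.160, 0.364 and 0.259 CPM in wt at 10 min (log2 fold change 4.61). At 30 min it had 5.28, 4.07 and 4.58 CPM in rrp4-2, 2.93, 3.95 and 2.54 CPM in hen2-4, and 0.260, 0.169 and 0.277 CPM in wt. The log2 fold change was 4.26 for rrp4-2 against wt and 3.70 for hen2-4 against wt. This TC too was chosen on these values, so no test is given.

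The TC opposite to the region upstream of XTH23 (chr4:13127935-13127948) overlaps another gene, AT4G25800. It had 2.93, 7.19 and 3.78 CPM in hen2-4 at 30 min, against 0.312, 0.225 and 1.66 CPM in wt at 30 min (log2 fold change 2.66). In rrp4-2 against wt its log2 fold change was 0.003. A TC of 9 bases opposite to the 5′ end of XTH24 had 46, 5 and 8 tags in wt at 30 min, against 2, 0 and 0 tags in wt at 10 min (log2 fold change 4.80). Leaving out 1 library moved that value between 3.29 and 7.37, and it did not meet the call rule with only the 2 groups fitted. The fifth, 1 base wide inside XTH24, held 0 to 144 tags in libraries of the same group. These TCs too were singled out after their values were seen, so no test is given.

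Of the 23 XTH genes not on the list, 18 were in the table. Of these, 1 was called lower with time in wt, against 3.63% of all genes, and 2 in hen2-4, against 5.31%. XTH26, known from root hairs, was called lower with time in wt, where it had 0.367, 0.166 and 0.0551 CPM at 30 min, against 5.27, 7.30 and 1.82 CPM at 10 min (−4.57 ± 0.72, edgeR adjusted p = 0.000288). XTH26 and XTH12 were called lower in hen2-4 (−1.79 and −2.23, edgeR adjusted p = 0.0415 and 0.0225), calls lost without any 1 of 7 libraries for XTH26, with adjusted p up to 0.159, and of 4 for XTH12, with adjusted p up to 0.0865. The call of XTH26 in hen2-4 was also lost with limma voom (−1.61, adjusted p = 0.0934) and with the replicate block (−1.79, adjusted p = 0.0575). The median log2 fold change of the 18 was −0.16 in wt and −0.18 in hen2-4.

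XTH14, the neighbour of XTH23 on chromosome 4, was the 1 gene of the 18 called between genotypes. Of all genes, 2.70% were called between rrp4-2 and wt at 30 min and 0.334% between rrp4-2 and hen2-4. XTH14 had 12.5, 14.3 and 16.8 CPM in rrp4-2, against 42.1, 32.1 and 21.0 CPM in wt at 30 min (−1.12 ± 0.27, edgeR adjusted p = 0.0277). Against hen2-4 at 30 min (44.9, 43.0 and 34.6 CPM) the log2 fold change in rrp4-2 was −1.49 ± 0.27 (edgeR adjusted p = 0.0239). Both calls were lost without any 1 rrp4-2 library, with adjusted p up to 0.105 against wt and 0.124 against hen2-4, and the first also with only the groups compared (−1.13, adjusted p = 0.111). XTH14 and XTH23 were both lower in every rrp4-2 library than in every library of wt and hen2-4 at 30 min. Of all genes, 19.6% did not overlap between rrp4-2 and wt, and 22.4% between rrp4-2 and hen2-4. XTH23 was called in neither comparison, and its log2 fold change against wt was −0.64 without replicate 3 of wt at 30 min.

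Of the other touch genes, which encode calmodulin and calmodulin-like calcium sensors, TCH3 rose with time in both genotypes. It had 1389, 1382 and 1165 CPM in wt at 30 min, against 214, 246 and 192 CPM in wt at 10 min (2.59 ± 0.16, edgeR adjusted p = 4.65e-08). In hen2-4 it had 1335, 1105 and 1246 CPM at 30 min, against 321, 423 and 327 CPM at 10 min (1.78, edgeR adjusted p = 1.73e-06). TCH1 was higher in all later libraries but under the fold limit (0.91 in wt and 0.68 in hen2-4, edgeR adjusted p = 0.000774 and 0.00752), and TCH2 overlapped (0.93 and 0.20, adjusted p = 0.0786 and 0.722).

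Of 16 genes that build or trim xyloglucan, the substrate of these enzymes, 2 were called in any comparison, both lower with time in hen2-4. That is 2 of 16 where 5.31% of all genes were called lower and 11.3% in either direction. XYL1, an alpha-xylosidase that trims xyloglucan, had 106, 82.4 and 72.5 CPM in hen2-4 at 30 min, against 215, 199 and 195 CPM in hen2-4 at 10 min (−1.22 ± 0.21, edgeR adjusted p = 0.000733). In wt its log2 fold change was −0.75 (edgeR adjusted p = 0.0178), under the fold limit. FUT1, which adds fucose to xyloglucan, had 5.71, 3.62 and 4.05 CPM in hen2-4 at 30 min, against 11.8, 8.09 and 11.6 CPM in hen2-4 at 10 min (−1.24, edgeR adjusted p = 0.0325), a call lost without any 1 of 4 hen2-4 libraries, with adjusted p up to 0.114. In wt FUT1 was not called (−1.03, edgeR adjusted p = 0.0725), but DESeq2 (−1.04, adjusted p = 0.033) and limma voom (−1.08, adjusted p = 0.0399) called it.

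**Figure D4:**
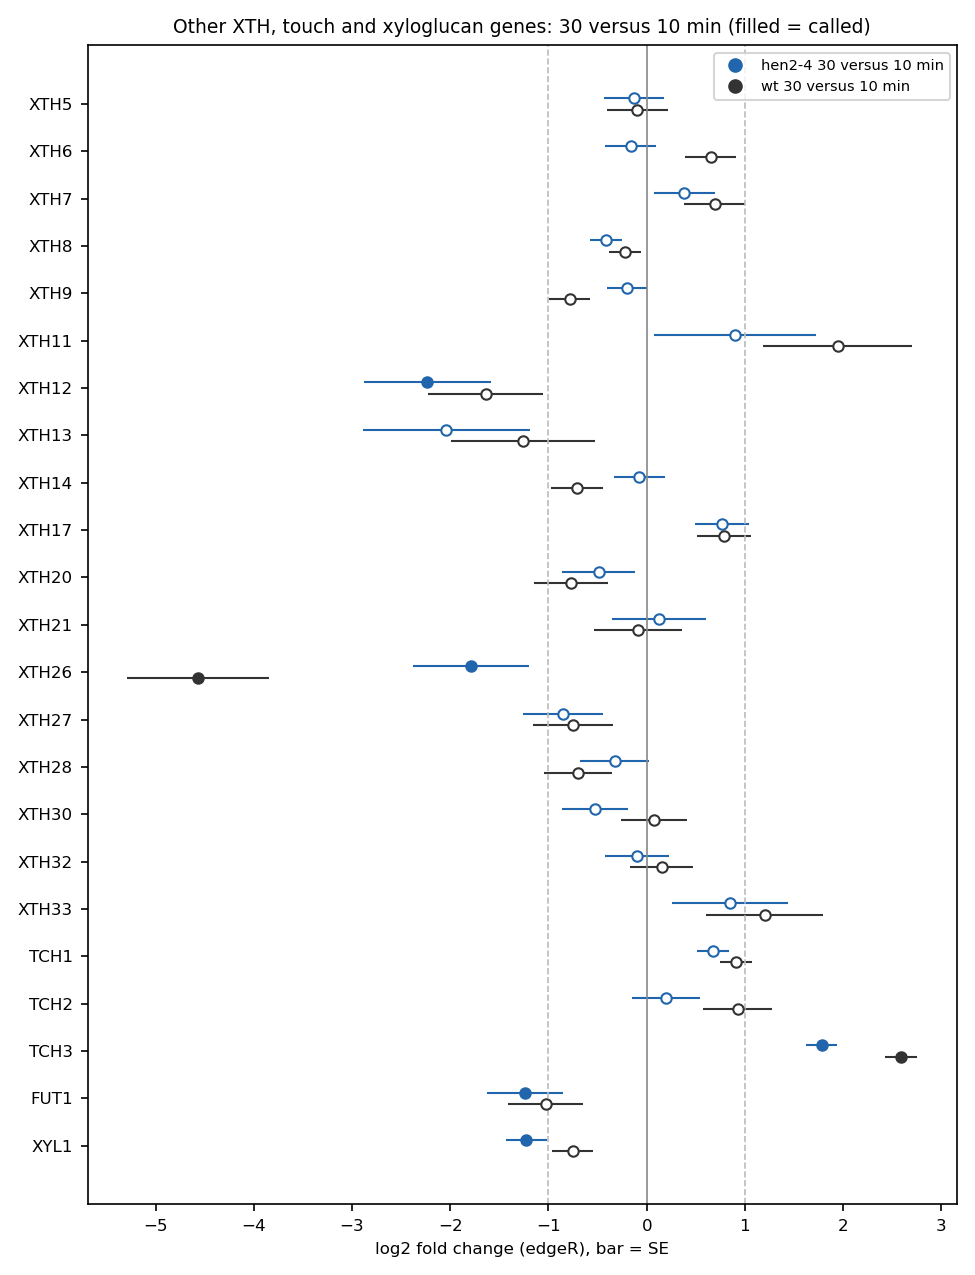
Log2 fold change with SE (horizontal axis) at 30 against 10 min in hen2-4 and in wt for 18 other XTH genes, TCH1, TCH2, TCH3, FUT1 and XYL1 (vertical axis). Filled points are called by edgeR and dashed lines mark −1 and 1. TCH3 lies at 1.78 in hen2-4 and 2.59 in wt, and XTH26 at −1.79 in hen2-4 and −4.57 in wt.

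Across the 15 libraries the levels of some members followed each other, given here as Pearson's r of log2(CPM + 1) with no test, since the points share groups and libraries. The highest were XTH18 with XTH19 at 0.89 and TCH4 with XTH18 at 0.87, and TCH4 with XTH19 and XTH24 with XTH25 were at 0.73. XTH4 ran opposite to XTH18, at −0.79, and to TCH4, at −0.77. Among 10568 tested genes with a mean of at least 10 CPM, the 5 most like TCH4 were AT4G16500 at 0.951, HIR2 (AT3G01290) at 0.941, AT1G32920 at 0.941, AT3G54200 at 0.938 and ALMT9 (AT3G18440) at 0.936. The 5 most like XTH24 were AT5G14450 at 0.897, AT5G01740 at 0.856, AT1G74910 at 0.854, CAT1 (AT1G20630) at 0.849 and AT1G23030 at 0.846.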

How the data were processed

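The authors trimmed CAGE reads, mapped them to TAIR10 with Bowtie 1.1.2, kept uniquely mapped tags and clustered their 5′ ends into TCs. The 2 tables used here, of genes and of TCs, hold raw tag counts per library as deposited by the authors, not normalised. Of their columns, 15 matched the labels, and 9 in either table matched no labelled sample and were not used. Normalised tables were not used.

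TCs were linked to genes where their counts added up to the deposited gene count. Coordinates are those of the TC names, and 97.9% of 23322 linked TCs overlapped their gene in RefSeq TAIR10.1, which supplied sequences, gene positions and 25-base tag uniqueness.

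Genes and TCs were tested with edgeR 4.0.16 in R 4.3.3 (quasi-likelihood test, filterByExpr, TMM, 5 group coefficients over the 15 libraries, no replicate block), with Benjamini-Hochberg adjustment over all 18879 genes or 26504 TCs. The filter removed 55 genes and 173 TCs, none of them members. TC use was tested with limma 3.58.1 (diffSplice). The code was tested on simulated data. Alternatives were DESeq2 1.42.0, limma voom, library sizes alone, DESeq2 size factors, no filter, only the groups compared, a replicate block, no fold limit and each library left out.

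The members, gene lists and motifs were chosen with earlier results of these data known. All members are named, and of the gene lists the genes called in at least 1 comparison. Tag ratios are scaled for library size, rest on few wt tags and are given as a description with no interval. Whether same-numbered replicates paired was checked by correlating their deviations from group means.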

Additional observations from a re-analysis of the deposited data

How the results depend on the processing

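Of 1540 log2 fold changes of the 10 XTH genes under other settings, 1514 had the same call, 9 lost it and 17 gained it, and 76 changed sign, none of them with an adjusted p of at most 0.05 in either fit. With library sizes alone the median log2 fold change of all genes between the times was −0.25 in wt and −0.24 in hen2-4, against 0.01 and −0.00 with TMM. Member genes called were 1 in hen2-4 against wt at 10 min with DESeq2 and 1 with library sizes alone, 1 in rrp4-2 against wt with DESeq2, and 1 in rrp4-2 against hen2-4 with only the groups compared, each against 0. Leaving out 1 library gave 2 to 5 member genes called between the times in hen2-4, and 0 to 1 in hen2-4 against wt at 10 min, in rrp4-2 against wt and in rrp4-2 against hen2-4. Of the member TCs, library sizes alone called 5 between the times in hen2-4 and 1 in hen2-4 against wt at 10 min, where no fold limit also called 1. In rrp4-2 against wt, DESeq2 called 2 TCs, and limma voom, the replicate block and only the groups compared called 0. Leaving out 1 library gave 4 to 9 member TCs between the times in hen2-4, 0 to 1 in hen2-4 against wt at 10 min and at 30 min, and 0 to 2 in rrp4-2 against wt. Of the opposite-strand TCs, only the groups compared called 0 between the times in wt and 2 in hen2-4, limma voom and the replicate block called 0 in hen2-4, and leaving out 1 library gave 0 to 2 there. These TCs were singled out after their values were seen, so their counts are a description. The cause of these shifts was not tested.

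The replicate numbers were not taken as pairs. Deviations of same-numbered libraries correlated at −0.37 to 0.44 over 30 pairs, and in none of the 6 pairs of groups compared were all 3 correlations over 0.1. Between wt at 30 min and hen2-4 at 10 min, which were not compared, all 3 were (0.16, 0.37 and 0.44) and each library correlated best with its own number, a hint from the data and not from the design. The replicate block changed 0 of 70 calls of member genes. Each group has 3 pools, XTH25 and the opposite-strand TCs rest on few tags, and calls near the fold limit, such as TCH4 in hen2-4, move with 1 library.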

Other observations

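A TC opposite to XTH27, an XTH gene outside the list, was the most abundant opposite-strand TC of the family and was singled out after its values were seen. It lies at chr2:387100-387205. It had 119, 139 and 65.7 CPM in hen2-4 at 10 min, against 14.6, 8.65 and 15.01 CPM in wt at 10 min (log2 fold change 3.08). In rrp4-2 it was higher than in wt at 30 min by a log2 fold change of 3.42, with no test given, while XTH27 itself was not called (−0.10, edgeR adjusted p = 0.922).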
